A study of Mus musculus with 9 samples.

Results

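The mitochondrial genome of the mouse encodes 13 proteins, 2 ribosomal RNAs and 22 transfer RNAs, and all 37 genes have a row in the deposited counts, out of 56923 rows in all. These rows were taken by their Ensembl identifiers, whose symbols and positions come from the GENCODE M21 annotation of GRCm38 (mm10). RNA was sequenced from 9 tumours of EL4, a mouse T-cell lymphoma line. In 5 the tumour genotype was labelled Vec and in 4 HVEM-KO, and the design text compares these 2 kinds of tumour. HVEM is the receptor encoded by Tnfrsf14. The labels say nothing of the hosts' strain or age, the number of clones or the animal behind each library, so p-values measure only the spread between these libraries, which may be technical.

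The mitochondrial genome is a small circle transcribed from both strands into long precursors, which are cut mainly at the transfer RNAs that stand between the other genes. Its proteins are core subunits of the respiratory chain and of ATP synthase, which in lymphoma cells, as elsewhere, work together with nuclear-encoded subunits. Its ribosomal and transfer RNAs serve the translation of these proteins inside the organelle. Most of the messenger RNAs carry short poly(A) tails and are retained in libraries made from polyadenylated RNA, while that of mt-Nd6 is known to lack a regular tail.

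Library totals ran from 5532155 to 8205620 counts. The nuclear rows could not be read by their names. The row of Eef1a1, an abundant translation factor, held 0 reads and that of Actb 166. Those of the T-lineage genes Lck and Cd3e held 45 and 13846. The row of Tnfrsf14 held 1 read, in Vec 5, so the knockout was not checked in these counts. Of 41 rows named for nuclear subunits of the respiratory chain and ATP synthase, 18 had fewer than 10 reads in all libraries together and 8 had 0. Of 30 named for nuclear factors of mitochondrial RNA synthesis, processing and translation, 12 had fewer than 10 and 6 had 0. Among marker rows, fewer than 10 reads were held by 3 of 8 for the T lineage, 3 of 6 for fibroblasts and matrix and 4 of 6 for macrophages. For endothelium it was 0 of 3 and for B cells 2 of 3. Median reads per row were 61.5, 1244.5, 5, 10 and 2 in that order. Few reads were common in the whole table. There 28852 of 56923 rows held any read, and the mt-Tc row, with 14 reads, ranked 16847. Levels of the listed nuclear genes and the makeup of the tumours were therefore not measured here. In bulk tumours, fewer cells of a type and less RNA per cell cannot be told apart.

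Part of the mitochondrial genome has a near-identical copy in the nuclear genome, and the sequences below show how close it is. In GRCm38 a run of 7 annotated unprocessed pseudogenes on the minus strand of chr1:24611535-24616197 follows the order of the mitochondrial genes from the end of mt-Co1 to the first part of mt-Nd4, and their spacing differs from that on chromosome M by at most 1 base. Of the transcript sequences in GENCODE M21, the copies of mt-Co2 (Gm28661, 681 aligned bases), mt-Atp6 (Gm10925, 678), mt-Co3 (Gm28437, 783), mt-Nd3 (Gm28438, 342) and mt-Nd4l (Gm10222, 294) had 0 substitutions over the aligned bases. That of mt-Nd4 (Gm28439) matched its first 876 bases with 0 substitutions, and that of mt-Co1 (Gm29216) matched bases 1063 to 1545 with 1 substitution, A1066T (the base of mt-Co1, its position from the first base of the gene, and the base of the copy). The first 60 bases of mt-Co2 (chrM:7013-7072, plus strand) and of its copy (chr1:24615506-24615565, minus strand) are given first, then bases 1041 to 1120 of mt-Co1 (chrM:6368-6447) and bases 837 to 916 of mt-Nd4 (chrM:11003-11082), where the match begins and ends. Capitals mark bases that are the same in gene and copy within the aligned stretch.
mt-Co2: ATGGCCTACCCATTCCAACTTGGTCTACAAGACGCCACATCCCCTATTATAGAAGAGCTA
Gm28661: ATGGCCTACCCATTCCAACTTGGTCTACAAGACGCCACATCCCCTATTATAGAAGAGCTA
mt-Co1: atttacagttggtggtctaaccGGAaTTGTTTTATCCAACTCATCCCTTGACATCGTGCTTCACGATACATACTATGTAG
mt-Nd4: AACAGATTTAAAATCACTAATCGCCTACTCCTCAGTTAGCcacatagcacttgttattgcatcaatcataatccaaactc

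A read that lies wholly in such a stretch has the same letters in both places. Of windows of 50 bases, at least 98.0% had an exact match in another annotated transcript for mt-Co2, mt-Atp6, mt-Co3, mt-Nd3 and mt-Nd4l. The share was 62.2% for mt-Nd4 and 51.1% for mt-Co1, where pseudogenes outside this run (Gm13340 and Gm11512) also held matching windows. In mt-Nd1, mt-Nd2, mt-Nd5, mt-Nd6 and mt-Cytb the share was between 0.0% and 8.19%. For windows of 100 bases it was 60.8% in mt-Nd4 and 30.8% in mt-Co1. mt-Atp8 had no matching window among annotated transcripts, though its last 43 bases, shared with mt-Atp6, lie within the matching part of Gm10925. By the spacing of its neighbours its place in the copy is chr1:24614609-24614812, of which chr1:24614652-24614812 has no annotated gene, and the genome sequence was not used here. The authors' treatment of reads with more than 1 matching place is not given.

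The levels per length were spread widely and did not follow the copied share in all rows. Over the 9 libraries the 5 genes with a copy along nearly their full length had mean levels of 14.7 to 658 CPM per kb, where CPM is a count scaled to the library's total and kb the gene's length. Among genes with few or no copied windows, mt-Nd1, mt-Nd2, mt-Nd5, mt-Nd6 and mt-Cytb had 2681 to 12364 CPM per kb, while mt-Atp8 had 9.34, mt-Rnr2 had 454 and mt-Rnr1 had 567, no higher than mt-Co2. The partly copied mt-Nd4 had 3958 CPM per kb, and mt-Co1, with 51.1% of its windows copied, was the highest of these rows at 30925. In the cell these genes are transcribed together from the same strand, apart from mt-Nd6. The part of the copied sequence in these levels was not tested, and the rows of mt-Co2, mt-Co3, mt-Nd3, mt-Nd4l, mt-Atp6 and mt-Atp8 are uncertain as levels. Those of mt-Nd4 and mt-Co1, copied in part, are uncertain too. As mt-Co1 held 50.4% of the mitochondrial reads, this carries into the shares of mitochondrial reads given below. The rows named for the 7 copies held 4 to 13 reads, but being nuclear rows they need not have counted these loci.

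**Figure D1:**
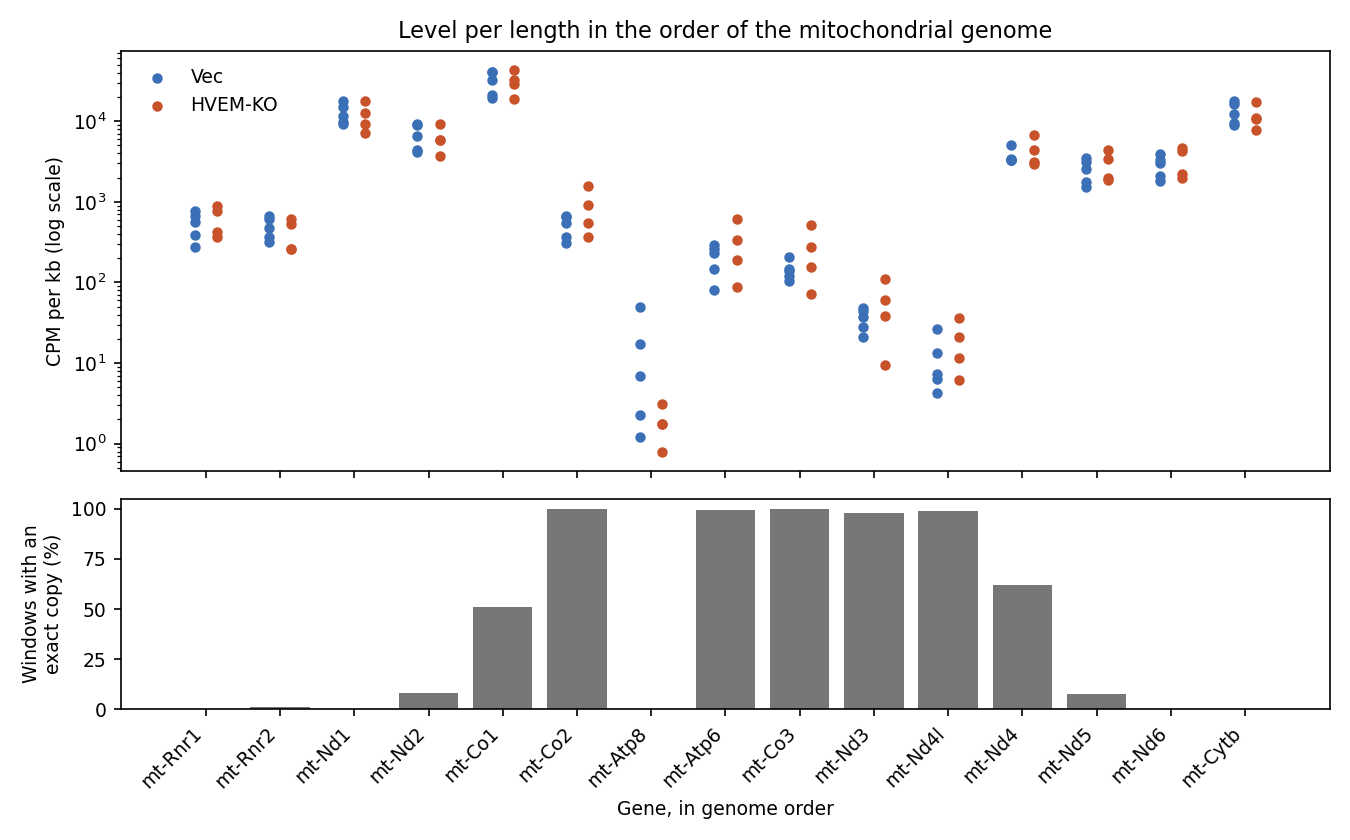
Upper panel: level of each protein and rRNA row in CPM per kb (log scale), 1 point per library, with genes in the order of the mitochondrial genome; no value is 0. Lower panel: percent of the 50-base windows of each gene with an exact match in another annotated transcript. The genes from mt-Co2 to mt-Nd4l lie at or below 1560 CPM per kb in each library, and mt-Co1 lies highest. mt-Atp8 stands at 0 in the lower panel, where only annotated transcripts were searched. Its 43 bases shared with the copied mt-Atp6 are fewer than a window.

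Mitochondrial rows held 5560787 reads, or 9.51% of all counts. In Vec 1 to 5 their share of the counts was 6.80%, 12.4%, 12.4%, 9.53% and 6.34%, and the 4 HVEM-KO libraries, in order, had 5.94%, 13.7%, 9.83% and 8.19%. The groups overlapped along nearly their whole range, and the lowest and the highest library, which differed 2.31-fold, were both HVEM-KO tumours. The mean was 9.50 ± 2.93% (SD, n = 5) in Vec and 9.42 ± 3.28% (SD, n = 4) in HVEM-KO tumours. The 95% Wilson interval of each share was at most 0.0542 percentage points wide. Such intervals cover counting error only, and the spread between libraries was far wider. Without Vec 1 and Vec 5, which earlier results of these data set apart and which had the lowest shares among the Vec libraries, the Vec mean was 11.5 ± 1.67% (SD, n = 3).

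Protein rows made up nearly all mitochondrial reads. They held 98.0% to 98.8% of them in each library, rRNA rows 0.994% to 1.60% and tRNA rows 0.173% to 0.520%. mt-Co1, mt-Cytb and mt-Nd1 together held 77.9% of the mitochondrial reads of all libraries. They were also the 3 rows with most reads in the whole table. By complex, the share of mitochondrial reads was 32.1 ± 1.63% in Vec and 32.2 ± 2.30% in HVEM-KO tumours for complex I, 15.7 ± 0.903% and 14.2 ± 1.03% for complex III, 50.4 ± 2.26% and 51.9 ± 2.36% for complex IV, and 0.151 ± 0.0615% and 0.207 ± 0.0965% for complex V (SD, n = 5 and n = 4). The groups overlapped for each of the 4 complexes.

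No mitochondrial row passed the test between HVEM-KO and Vec tumours. Of the 37 rows, 22 passed the filter on low counts: 12 of the 13 protein rows (all but mt-Atp8), both rRNA rows and 8 of the 22 tRNA rows. edgeR's quasi-likelihood test called 0 of these 22 at an adjusted p under 0.05, and 0 had an unadjusted p under 0.05. The background was 0.0% of 11521 tested rows called, with 1226 at an unadjusted p under 0.05. DESeq2 and limma voom also called 0 of the 22, with 1 each at an unadjusted p under 0.05. Over all 11521 rows they called 81 and 0, with 1352 and 1257 at an unadjusted p under 0.05. The median log2 fold change was -0.07 over the 22 rows, with 10 above and 12 below 0, and 0.01 over all tested rows. In CPM the groups of 0 of the 22 rows were free of overlap, against 2.79% of all tested rows in either direction and 1.22% with HVEM-KO lower.

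Complex I, which takes electrons from NADH, has 7 subunits encoded in mitochondria. mt-Nd1 (ENSMUSG00000064341, chrM:2751-3707) belongs to the membrane arm next to the ubiquinone site and was at 9444, 14273, 17276, 10959 and 8871 CPM in Vec 1 to 5 and at 6890, 17044, 12149 and 8756 CPM in HVEM-KO 1 to 4. mt-Nd2 (chrM:3914-4951) ran from 3820 to 9653 CPM and mt-Nd5 (chrM:11742-13565), at the far end of the membrane arm, from 2812 to 7980 CPM. HVEM-KO 1 was the lowest library for mt-Nd1 and mt-Nd2 and HVEM-KO 2 the highest for mt-Nd2 and mt-Nd5, and the groups overlapped in all 3 rows. Their log2 fold changes were -0.15 ± 0.30 (SE), -0.15 ± 0.32 and 0.20 ± 0.32. edgeR's quasi-likelihood test gave adjusted p of 0.872, 0.879 and 0.839. Leaving out HVEM-KO 1 turned the first 2 values to 0.06 and 0.07, and leaving out HVEM-KO 2 turned the third to -0.12.

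mt-Nd4 (chrM:10167-11544), another membrane subunit, was at 4578, 6979, 4652, 4598 and 4597 CPM in Vec 1 to 5 and 4318, 9214, 6098 and 4054 CPM in HVEM-KO 1 to 4. Vec 1, 3, 4 and 5 lay close together and Vec 2 stood above them. Its log2 fold change was 0.19 ± 0.27 (SE, edgeR, adjusted p = 0.801), and -0.16 without HVEM-KO 2. mt-Nd6 (chrM:13552-14070) is the 1 protein gene on the minus strand and shares 14 bases with mt-Nd5 on the other strand. It ran from 938 to 2439 CPM, with a log2 fold change of 0.20 ± 0.31 (SE, edgeR, adjusted p = 0.830), and -0.07 without HVEM-KO 2. Its reads were 0.277 to 0.363 of those of mt-Nd5, a steady ratio whose groups overlapped, and its mean level per length was 3037 CPM per kb against 2681 for mt-Nd5. No source used here gives the strand setting of the counting, so reads of mt-Nd6 and of RNA antisense to it cannot be told apart.

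The small subunits mt-Nd3 (chrM:9459-9806) and mt-Nd4l (chrM:9877-10173) had few reads, 902 and 246 in all. mt-Nd3 ran from 3.25 to 38.5 CPM and mt-Nd4l from 1.25 to 10.8 CPM. For both, HVEM-KO 2 was the highest library. Their log2 fold changes were 0.62 ± 0.51 (SE, edgeR, adjusted p = 0.651) and 0.73 ± 0.58 (SE, edgeR, adjusted p = 0.639), and without HVEM-KO 2 they were -0.04 and 0.14.

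Complex III passes electrons from ubiquinol to cytochrome c, and mt-Cytb (ENSMUSG00000064370, chrM:14145-15288) encodes its cytochrome b. It was at 10345, 18885, 20263, 14061 and 10755 CPM in Vec 1 to 5 and 8887, 19570, 12464 and 12068 CPM in HVEM-KO 1 to 4. The means were 14862 ± 4562 CPM (SD, n = 5) and 13247 ± 4509 CPM (SD, n = 4), with a log2 fold change of -0.20 ± 0.29 (SE, edgeR, adjusted p = 0.805). As a share of mitochondrial reads mt-Cytb was at 14.8% to 17.0% in Vec and 12.7% to 14.96% in HVEM-KO tumours. These ranges overlapped through Vec 4 and HVEM-KO 1.

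Complex IV, cytochrome c oxidase, reduces oxygen. mt-Co1 (ENSMUSG00000064351, chrM:5328-6872), its catalytic subunit, had 2802069 reads, 50.4% of the mitochondrial reads. It was at 33018, 63214, 62434, 50270 and 29670 CPM in Vec 1 to 5 and 29525, 66943, 50031 and 44899 CPM in HVEM-KO 1 to 4. The groups overlapped over nearly their whole range, and the lowest and the highest library were both HVEM-KO tumours. Its log2 fold change was -0.03 ± 0.30 (SE, edgeR, adjusted p = 0.979), and was 0.00 scaled by library size alone and 0.03 scaled by the mitochondrial total. Among the 22 tested rows its share of mitochondrial reads varied least, with a coefficient of variation of 4.72% over the 9 libraries. A row that is such a large part of the total varies less as a share by construction. In CPM its coefficient of variation was 30.7%.

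mt-Co2 (ENSMUSG00000064354, chrM:7013-7696), which holds the copper site that takes up electrons from cytochrome c, was at 211, 368, 455, 444 and 250.2 CPM in Vec 1 to 5 and 378, 1067, 627 and 249 CPM in HVEM-KO 1 to 4. mt-Co3 (ENSMUSG00000064358, chrM:8607-9390), the third core subunit, was at 82.7, 108, 114, 93.4 and 162 CPM in Vec and 123, 408, 213 and 56.9 CPM in HVEM-KO tumours. HVEM-KO 2 was the highest of the 9 libraries for both rows, and HVEM-KO 4 lay at or below most Vec libraries. The log2 fold changes were 0.73 ± 0.39 (SE, edgeR, adjusted p = 0.505) and 0.82 ± 0.46 (SE, edgeR, adjusted p = 0.521). Without HVEM-KO 2 they were 0.20 and 0.15, and without HVEM-KO 4 they were 1.00 and 1.14.

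Complex V is ATP synthase, and mt-Atp6 and mt-Atp8 encode subunits of its membrane part. mt-Atp6 (ENSMUSG00000064357, chrM:7927-8607) was at 156, 197, 99.8, 175 and 55.3 CPM in Vec 1 to 5 and 129, 416, 227 and 59.8 CPM in HVEM-KO 1 to 4. Its log2 fold change was 0.62 ± 0.49 (SE, edgeR, adjusted p = 0.633), and -0.02 without HVEM-KO 2. The 2 genes overlap. The last 60 bases of mt-Atp8 (chrM:7910-7969, plus strand) are shown with the 43 bases shared with mt-Atp6 in capitals, since a read there belongs to both genes.
mt-Atp8: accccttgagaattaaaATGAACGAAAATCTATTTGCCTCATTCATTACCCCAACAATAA

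mt-Atp8 (ENSMUSG00000064356, chrM:7766-7969) had 2, 20, 82, 3 and 9 reads in Vec 1 to 5 and 2, 4, 1 and 2 reads in HVEM-KO 1 to 4. Vec 3 held 82 of its 125 reads. With 0.633 CPM at most, the HVEM-KO libraries were at or near the floor of 3 counts, which is 0.366 to 0.542 CPM per library. The row was left out by the low-count filter. Without that filter it was the 1 mitochondrial row called (edgeR's quasi-likelihood test, log2 fold change -3.10 ± 0.62, SE, adjusted p = 0.000686), in a fit that called 0.555% of 28852 rows as lower in HVEM-KO tumours. With the mitochondrial total as library size and no filter its adjusted p was 0.151. Without Vec 3, an alternative chosen after seeing the data, its log2 fold change in the unfiltered fit was -1.84 ± 0.79 (SE, edgeR, adjusted p = 0.426). The groups overlapped, since Vec 1 and Vec 4 lay among the HVEM-KO libraries.

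**Figure D2:**
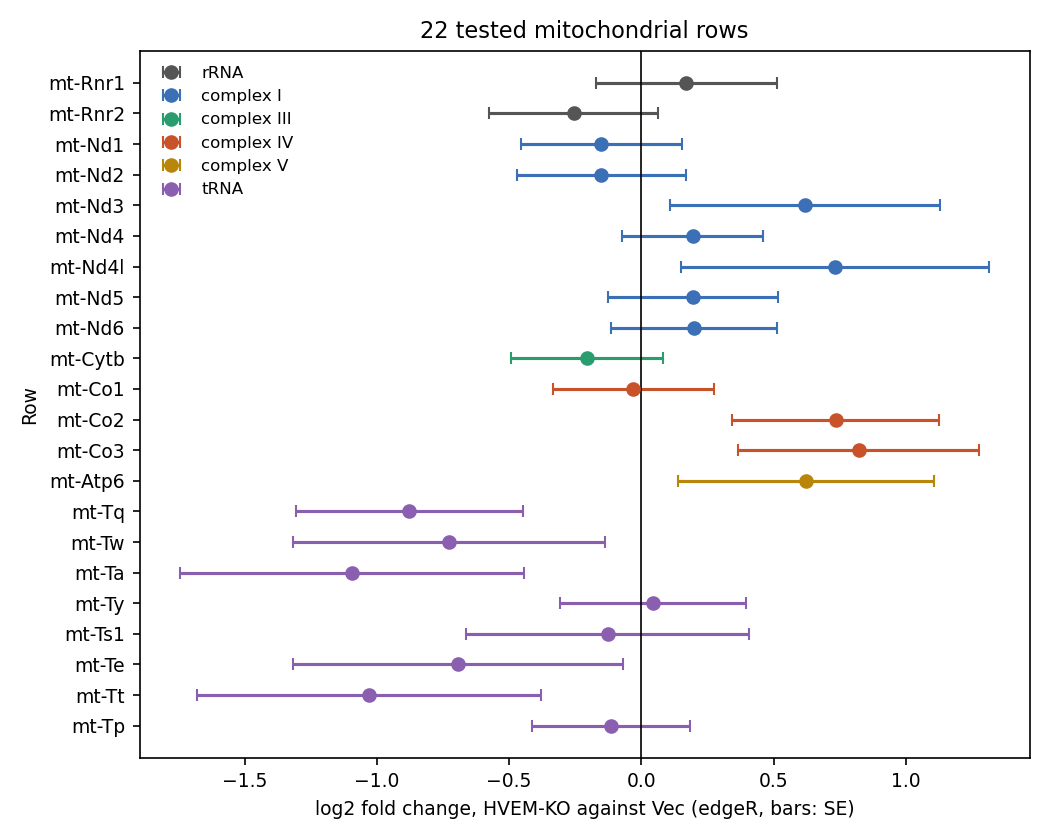
log2 fold change (HVEM-KO against Vec, horizontal axis) of the 22 tested mitochondrial rows in edgeR's fit over 11521 rows, with bars of 1 SE and colours by complex or RNA class. The rows of mt-Co1, mt-Nd1, mt-Nd2 and mt-Cytb lie between -0.20 and -0.03, and those of mt-Nd4, mt-Nd5 and mt-Nd6 at 0.19 to 0.20. Those with a nearly full-length nuclear copy lie at 0.62 to 0.82, and without HVEM-KO 2 (not drawn) were at -0.04 to 0.20. In all, 0 of the 22 passed at an adjusted p under 0.05.

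The 5 rows with a nearly full-length copy varied more between libraries than the other protein rows that were tested. Their summed share of mitochondrial reads was 0.688%, 0.560%, 0.547%, 0.768% and 0.752% across Vec 1 to 5, and 1.09%, 1.42%, 1.11% and 0.452% across HVEM-KO 1 to 4. HVEM-KO 1, 2 and 3 thus lay above each Vec library and HVEM-KO 4 below each of them. The means were 0.663 ± 0.104% (SD, n = 5) and 1.02 ± 0.405% (SD, n = 4). The coefficient of variation of the share was 38.0% for mt-Co2, 46.3% for mt-Atp6, 52.6% for mt-Co3, 50.9% for mt-Nd3 and 52.2% for mt-Nd4l. For mt-Co1, mt-Cytb, mt-Nd1 and mt-Nd2 it was 4.72%, 8.02%, 9.88% and 7.62%, and for mt-Nd4, mt-Nd5 and mt-Nd6 20.6%, 13.5% and 17.3%. In the 3 tRNA rows with most reads, which had no matching window of 50 bases, it was 46.1% (mt-Ts1), 7.27% (mt-Tp) and 37.6% (mt-Tq). Rows that are large parts of the total vary less as shares by construction. In CPM it was 58.9% (mt-Co2) to 74.3% (mt-Nd4l) for the 5 rows. For the other tested protein rows it was 30.6% (mt-Cytb) to 36.2% (mt-Nd5). The rows differ in depth as well as in sequence, from 246 reads for mt-Nd4l to 26163 for mt-Co2, and the part of depth or of the nuclear copy in this spread was not tested.

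**Figure D3:**
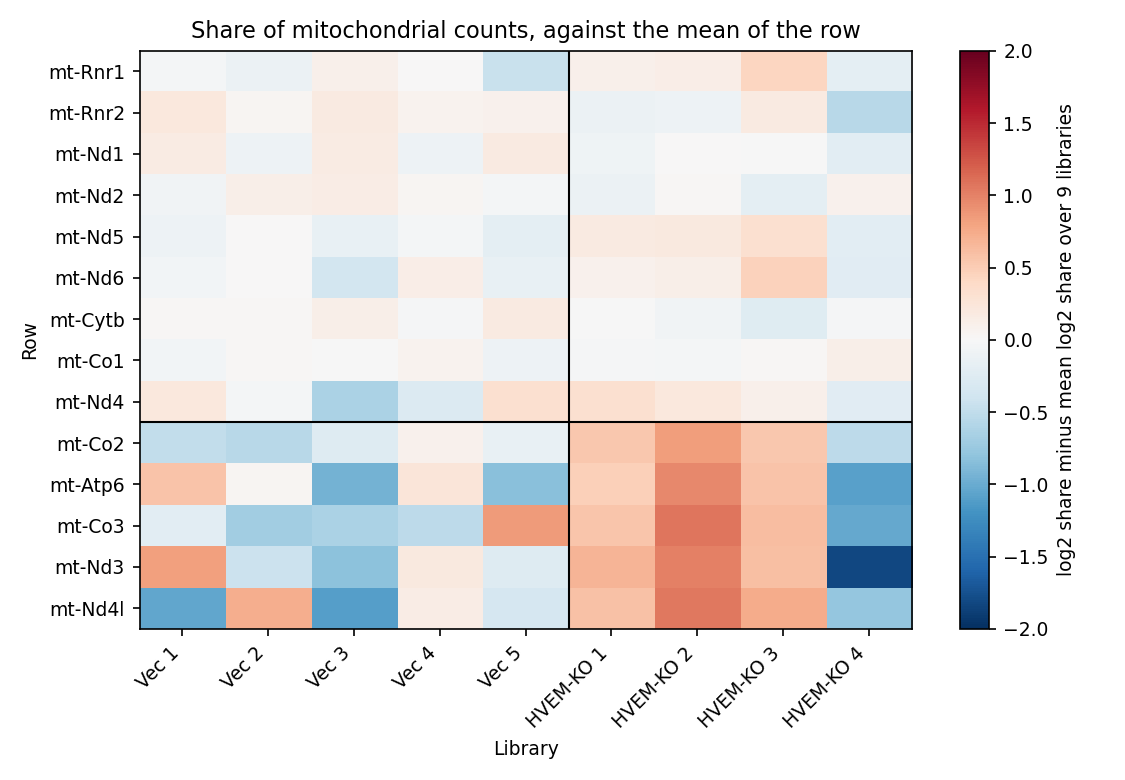
Share of mitochondrial counts of 14 rows (vertical axis) in 9 libraries (horizontal axis), as the log2 share minus the mean log2 share of the row, from blue (lower) to red (higher). The 5 rows under the horizontal line, which have a nearly full-length nuclear copy, are above their row means in HVEM-KO 1, 2 and 3 and below them in HVEM-KO 4, and the rows above the line vary less.

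The 2 RNAs of the mitochondrial ribosome each overlapped between the groups, while their ratio did not. mt-Rnr1 (ENSMUSG00000064337, chrM:70-1024), the RNA of the small subunit, was at 370, 637, 745, 533 and 260.1 CPM in Vec 1 to 5 and 354, 836, 740 and 398 CPM in HVEM-KO 1 to 4. mt-Rnr2 (ENSMUSG00000064339, chrM:1094-2675), the RNA of the large subunit, was at 588, 956, 1054, 745 and 502 CPM in Vec and 411, 957, 837 and 416 CPM in HVEM-KO tumours. Their log2 fold changes were 0.17 ± 0.34 (SE, edgeR, adjusted p = 0.872) and -0.26 ± 0.32 (SE, edgeR, adjusted p = 0.778), the first being -0.10 without HVEM-KO 2. The number of mt-Rnr1 reads per mt-Rnr2 read, however, was 0.630, 0.666, 0.707, 0.716 and 0.518 across Vec 1 to 5, and 0.861, 0.874, 0.885 and 0.958 across HVEM-KO 1 to 4. The groups did not overlap, with means of 0.647 ± 0.0800 (SD, n = 5) and 0.894 ± 0.0434 (SD, n = 4), and without Vec 1 and Vec 5 the Vec mean was 0.696 ± 0.0267 (SD, n = 3).

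This ratio was picked after the values were seen, so no test is given. Of all pairs of tested rows in the table, 3.3% had a ratio that did not overlap between the groups, and of the 231 pairs of tested mitochondrial rows 22 did (9.52%). Pairs that share a row are not independent. Most of the 22 pairs held mt-Tq (12 pairs) or mt-Ta (6 pairs), and mt-Rnr2 was in 4. Per length, the rRNA rows had means of 567 and 454 CPM per kb, below mt-Nd1, mt-Nd2, mt-Nd5, mt-Nd6 and mt-Cytb and above mt-Atp8. Of the 50-base windows of mt-Rnr2, 1.04% had a match in another annotated transcript, and of those of mt-Rnr1 0%. The labels name an mRNA library kit, and rRNA here is what such a library retains.

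Transfer RNA rows split by strand. All 8 on the minus strand of chromosome M had reads, from 14 for mt-Tc to 13597 for mt-Ts1. Of the 14 on the plus strand, 8 had 0 reads in all 9 libraries (mt-Tf, mt-Tl1, mt-Tm, mt-Td, mt-Tk, mt-Tr, mt-Ts2 and mt-Tl2), and mt-Tv, mt-Ti, mt-Tg and mt-Th had 2 to 4. The exceptions were mt-Tw with 99 and mt-Tt with 152 reads, on the plus strand. A count of 0 allows up to 0.366 to 0.542 CPM per library. The plus strand rows held 263 reads in all and the minus strand rows 18936. Plus strand tRNA genes lie on the strand of 12 of the 13 protein genes. The rule for a read that touches 2 genes is not stated in any source used here.

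Most tRNA reads lay in 3 rows, whose genes are shown here with a plus strand gene at 0 reads for comparison. mt-Ts1 (serine, chrM:6870-6938, minus strand) lies after mt-Co1 and shares its last 3 bases with it, on the other strand. mt-Tp (proline, chrM:15356-15422, minus strand) lies after mt-Cytb and mt-Tt, and mt-Tq (glutamine, chrM:3772-3842, minus strand) between mt-Nd1 and mt-Nd2, sharing its last 3 bases with mt-Ti. mt-Tl1 (leucine, chrM:2676-2750, plus strand) stands with no gap between mt-Rnr2 and mt-Nd1. Each sequence is the gene's own strand, without the CCA end that is added after transcription, and capitals mark the bases shared with another gene.
mt-Ts1: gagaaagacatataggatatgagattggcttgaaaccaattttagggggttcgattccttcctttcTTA
mt-Tp: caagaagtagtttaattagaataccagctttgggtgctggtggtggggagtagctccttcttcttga
mt-Tq: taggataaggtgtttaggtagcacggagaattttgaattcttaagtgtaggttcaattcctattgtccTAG
mt-Tl1: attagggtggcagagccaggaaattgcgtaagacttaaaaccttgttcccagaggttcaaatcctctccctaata

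**Figure D4:**
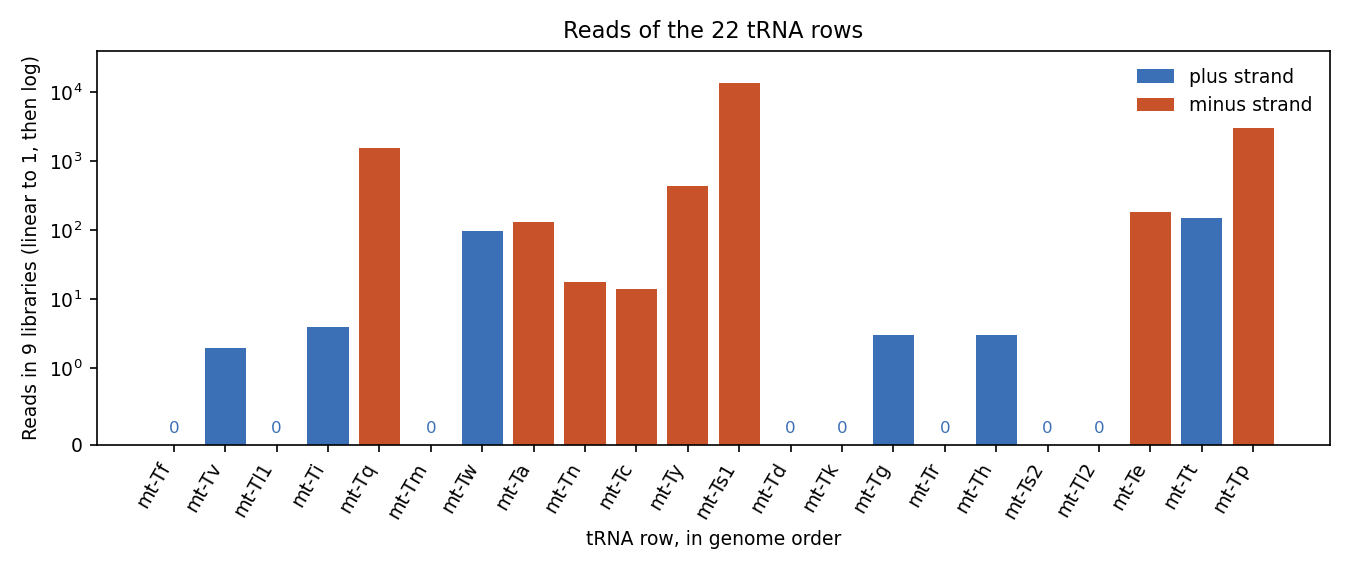
Reads of each of the 22 tRNA rows summed over 9 libraries (vertical axis, linear to 1 and logarithmic above), in the order of the mitochondrial genome, coloured by strand, with 0 written where a row had no read. Each minus strand row has 14 reads or more, and 12 of the 14 plus strand rows have 4 or fewer.

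mt-Ts1 was at 281, 379, 261, 112 and 155 CPM in Vec 1 to 5 and 48.6, 407, 301 and 111 CPM in HVEM-KO 1 to 4. Its reads were 0.165% to 0.850% of those of mt-Co1, and both ends of that range came from libraries with a low mitochondrial share, HVEM-KO 1 and Vec 1. Per length it had 3310 CPM per kb, above mt-Nd5 and mt-Nd6. The gene has only 69 bases, and reads that reach past its ends can count, so this is not like for like with those longer genes. mt-Tp was steadier, at 33.0 to 77.2 CPM and 0.322% to 0.432% of the reads of mt-Cytb, with a coefficient of variation of its share of mitochondrial reads of 7.27%. Their log2 fold changes were -0.13 ± 0.53 (SE, edgeR, adjusted p = 0.945) and -0.11 ± 0.30 (SE, edgeR, adjusted p = 0.905). Neither sign was stable, since mt-Ts1 was at 0.23 without HVEM-KO 1, 0.08 without Vec 2 and 0.11 without HVEM-KO 4, and mt-Tp at 0.08 without HVEM-KO 1, 0.04 without Vec 2 and 0.03 without Vec 3.

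mt-Tq was the tested mitochondrial row of smallest p. It was at 20.2, 40.2, 51.2, 23.7 and 23.3 CPM in Vec 1 to 5 and 11.05, 32.1, 19.2 and 7.77 CPM in HVEM-KO 1 to 4. In CPM the groups overlapped, with HVEM-KO 2 above 3 of the 5 Vec libraries, and the log2 fold change was -0.88 ± 0.43 (SE, edgeR, adjusted p = 0.485). Over the alternatives its adjusted p ran from 0.279 to 0.817. As a share of mitochondrial reads it was at 0.0298%, 0.0324%, 0.0411%, 0.0249% and 0.0368% across Vec 1 to 5, and 0.0186%, 0.0234%, 0.0195% and 0.00949% across HVEM-KO 1 to 4. These shares did not overlap, but the nearest, of Vec 4 with 155 reads and HVEM-KO 2 with 203 reads, lay close together. Per read of mt-Co1, mt-Tq did overlap between the groups (0.000472 in Vec 4 and 0.000480 in HVEM-KO 2). Among the 22 tested rows 2 had such shares, mt-Tq and mt-Ta, both lower in HVEM-KO tumours. Of all tested rows, scaled by the same total, 1.04% did in either direction and 0.365% with HVEM-KO lower. By CPM these were 2.79% and 1.22%. The background is not like for like, since rows outside the mitochondrial genome are divided by a total they are not part of. An excess among the 22 rows was not tested. With the mitochondrial total as library size the log2 fold changes of mt-Tq and mt-Ta were -0.89 ± 0.43 and -1.13 ± 0.63 (SE, edgeR, adjusted p = 0.722 and 0.854). In that fit 24 of 11521 rows (0.208%) passed, none of them mitochondrial.

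mt-Ta, the tRNA for alanine (chrM:5018-5086, minus strand), had 133 reads in all and 0 in HVEM-KO 1. It ran from 1.37 to 4.87 CPM in Vec and from 0 to 2.53 CPM in HVEM-KO tumours. Its nearest shares of mitochondrial reads rested on 11 reads in Vec 1 and 16 reads in HVEM-KO 2. Of the 8 tested tRNA rows 7 had a log2 fold change below 0, while 52.0% of all tested rows lay above 0. Without Vec 2, mt-Te, mt-Ts1 and mt-Tp were above 0 as well, mt-Tw did not pass the filter, and mt-Tq, mt-Ta and mt-Tt stayed below 0. That of mt-Tw (tryptophan) was -0.73 ± 0.59, that of mt-Te (glutamate) -0.69 ± 0.62 and that of mt-Tt (threonine) -1.03 ± 0.65 (SE, edgeR, adjusted p = 0.644, 0.678 and 0.555). Vec 2 was the highest library for mt-Te, whose value was 0.04 without it. mt-Ty (tyrosine) was at 0.04 ± 0.35 (adjusted p = 0.974), and -0.06 with limma voom. The rows passed the filter with 99 to 436 reads in 9 libraries, except mt-Tq, mt-Tp and mt-Ts1 with more, so their precision was low.

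**Figure D5:**
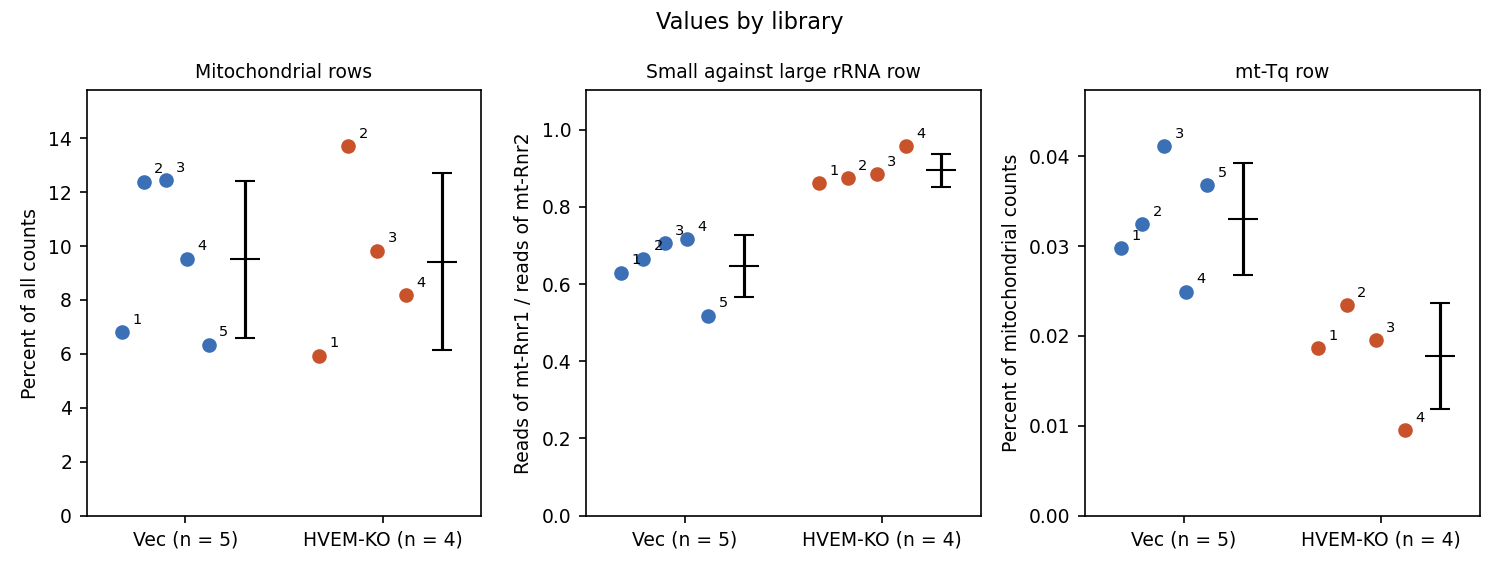
Share of all counts in mitochondrial rows (left), reads of mt-Rnr1 per read of mt-Rnr2 (middle) and mt-Tq as percent of mitochondrial counts (right), 1 point per library with its replicate number, with the mean and bars of 1 SD for 5 Vec and 4 HVEM-KO libraries. The mitochondrial share overlaps between the groups, and the other 2 quantities, picked after the values were seen, do not.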

How the data were processed

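Raw counts for 9 libraries were deposited by the authors as 1 table, aligned to mm10 per the submitters' processing notes. RNA was extracted with TRIzol and libraries made with a SMARTER mRNA-Seq kit, per the labels' protocols. Aligner, counting program, annotation and strand setting are not stated there. Columns were matched to samples by title and identifiers stripped of their version. CPM divides a count by the library's total, CPM per kb also by gene length.

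All rows passing filterByExpr entered one model in edgeR 4.0.16 (R 4.3.3) with TMM normalisation, its robust quasi-likelihood test, p-values adjusted after Benjamini and Hochberg, and no covariates. The SE is the log2 fold change divided by the root of F. The code was tested on simulated data. limma 3.58.1 and DESeq2 1.42.0 were alternatives. The libraries all differed by more than sampling noise (lowest chi-square per degree of freedom 12.7, between Vec 1 and Vec 5). Ratios in the pair counts used 0.5 added reads. Windows and alignments used GENCODE M21 transcripts.

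The members and lists were chosen with earlier results of these data known. Values are given for all protein and rRNA rows and, of the tRNA rows, those that passed the filter, the 3 with most and those with fewest reads. Other genes are named only as checks.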

Additional observations from a re-analysis of the deposited data

Results flagged for a closer look

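For mt-Nd4 in Vec tumours the gap between Vec 2, at 6979 CPM, and the nearest other library was 0.969 of the group's range. The other 4 Vec libraries lay between 4578 and 4652 CPM. Without Vec 2 the log2 fold change of mt-Nd4 was 0.32 (edgeR). It was the 1 such case among 64 groups examined, where chance at about 1 in 20 would give 3.2. The 64 groups share libraries and include sums of the same rows, so they are not independent.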

How the results depend on the processing

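Of 389 values from 18 alternatives to the log2 fold changes of the 22 tested rows, 389 stayed on their side of the threshold, with adjusted p of at least 0.229. Rows called over the whole table were 24 with the mitochondrial total as library size, 307 without a low-count filter and 81 with DESeq2, and 0 to 1 with 1 library left out. Without the low-count filter 1 mitochondrial row passed, mt-Atp8. With Vec 3 also left out, a combination chosen after seeing the data, 187 rows and 0 mitochondrial rows passed in edgeR. Of the 29 mitochondrial rows in that fit 4 had an unadjusted p under 0.05, against 2422 of all 28205 rows. The median log2 fold change of the mitochondrial rows ran from -0.29 to 0.16 with 1 library left out, and the difference in mitochondrial share from -1.52 to 1.07 percentage points, so neither has a stable sign. Leaving out HVEM-KO 2 took the log2 fold changes of mt-Atp6, mt-Nd3, mt-Nd4, mt-Nd5, mt-Nd6, mt-Rnr1 and mt-Ty below 0. Scaling by the mitochondrial total moved the median of all rows from 0.01 to 0.15. No paired analysis was possible because the labels give no replicate numbers shared by the groups. Few reads limit the precision of mt-Atp8 (125 reads), mt-Nd4l (246) and tRNA rows such as mt-Tw (99).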
